A study of Mus musculus with 8 samples.

Results

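The Pax6(5a) line was compared with its control line on 6 of the 8 arrays of the study and over all probes. Pax6(5a) is a splice form of Pax6, a transcription factor with a paired domain and a homeodomain that is needed for development of the eye, brain and pancreas. Inclusion of the alternative exon 5a puts extra residues into the paired domain, which shifts DNA contact between the N-terminal and the C-terminal part of that domain, and the 2 forms are made together in eye and brain. In the FlpIn-3T3 system a cDNA is placed by Flp recombinase at a single prepared site of mouse embryonic fibroblasts and is read from the promoter of the expression vector in all cells. The Pax6(5a) line, with the mouse Pax6(5a) cDNA at that site, was read on 3 arrays, 2 of RNA prepared at passage 8 (replicates 1 and 2) and 1 at passage 13 (replicate 3). The Pax6 line, with the form that lacks exon 5a, was read on 2 arrays, from passages 9 (replicate 1) and 15 (replicate 2), and serves here only to share the estimate of the spread and to test differences between the 2 inserts. The control line, FlpIn-3T3 cells without a Pax6 insert, was read on 3 arrays, 2 of passage 13 (replicates 1 and 2) and 1 of passage 19 (replicate 3). Cells with an insert were kept in hygromycin, at 150 µg/ml, and control cells in Zeocin, at 100 µg/ml. Insert, antibiotic and the history of the 1 line behind each insert cannot be told apart, and only passage 13 was read in both the Pax6(5a) line and the control line.

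Each Illumina Mouse Ref-8 V1.1 array gave a signal and a detection p-value for 24613 probes. In the platform table used here 20984 of these have 1 gene symbol, 3628 have none and 1 has several, and 15967 genes are covered. Between 10425 and 10645 probes were detected (detection p-value under 0.01) per array of the Pax6(5a) line, against 10338 to 10685 in the control line. Of 15 fibroblast marker genes measured, 10 were detected on all 6 arrays, among them Vim, Col1a1, Thy1 and Prrx1, and 3 on none, namely Postn, Col5a2 and Fap. The epithelial keratins and E-cadherin were also detected on none. The only probe for Pax6 was detected on none of the 8 arrays. Its signals were 47.5, 50.6 and 47.2 in the Pax6(5a) line, 51.4 and 56.8 in the Pax6 line and 45.2, 48.2 and 52.5 in the control line. Whether the cDNA insert holds the sequence of this probe was not tested, so the arrays do not check the labels.

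Values below are quantile-normalized signals in arbitrary units, which compare a probe between arrays and not with another probe. A gene is given by its brightest probe. Calls used 2 limits on the limma fit over all probes (Benjamini-Hochberg). Threshold 1 asked for 1.7-fold or more with adjusted p below 0.001, and threshold 2 for 1.5-fold or more with adjusted p below 0.01. "Rose" and "fell" are used of genes past threshold 2. Standard errors (SE) are on the log2 scale, with n = 3 arrays in each line. No source says if preparations of 1 passage were grown apart, and p-values thus measure the spread between arrays, which may be partly technical.

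The Pax6(5a) line differed from the control line in a small part of the transcriptome, and more of these probes were lower than higher. Threshold 1 was passed by 82 probes (0.333% of all probes), with 30 rises and 52 falls. Threshold 2 was passed by 238 probes (0.967%), 108 higher and 130 lower. All 238 had no overlap between the 3 Pax6(5a) arrays and the 3 control arrays, as had 20.3% of all probes. The median log2 difference over all genes was 0.00. Counted by gene, 68 genes passed threshold 1, 25 higher and 43 lower, with median folds of 2.00 and 2.11. Of these, 49 were detected on all 6 arrays and 19 on fewer. At threshold 2 there were 192 genes, 88 higher (0.551% of all genes) and 104 lower (0.651%). The counts of the gene lists below are to be read beside these shares, at which a short list would often hold no called gene. The count past threshold 1 was 48 without Pax6(5a) replicate 1, 50 without Pax6(5a) replicate 2, 45 without control replicate 1 and 50 without control replicate 2, each of which leaves 1 array per passage in that line. It was 11 when the preparations of the same passage were averaged.

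**Figure D1:**
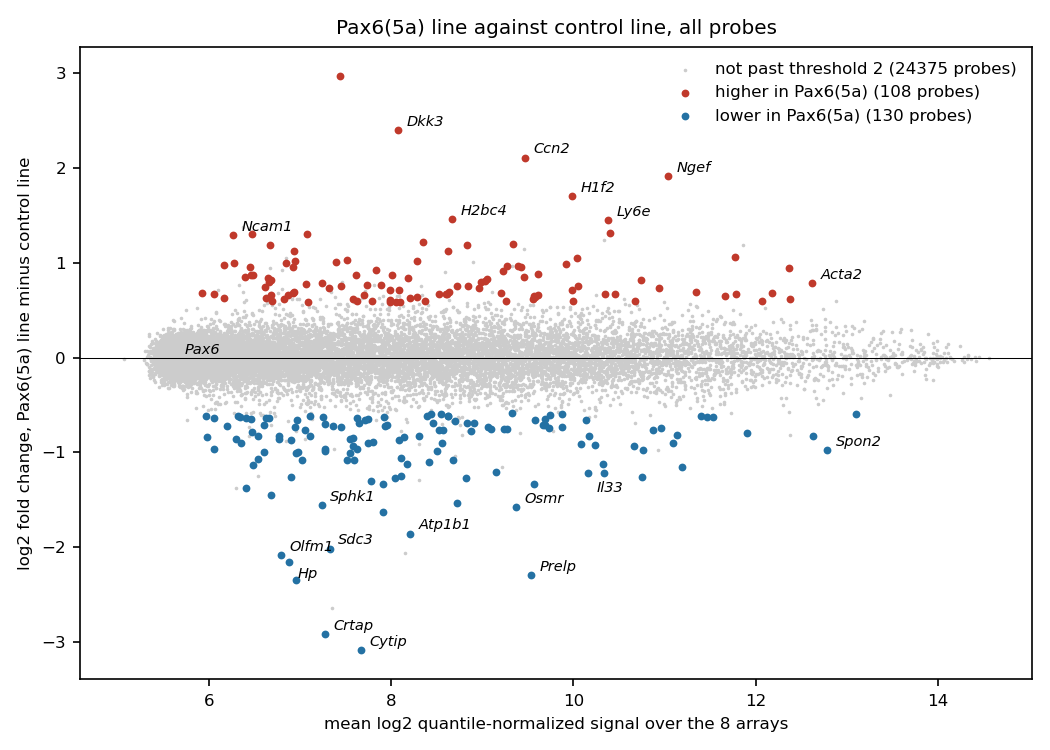
Log2 fold change of the Pax6(5a) line over the control line (y axis) against mean log2 quantile-normalized signal over the 8 arrays (x axis), 1 point per probe. Red points are the 108 rises and blue points the 130 falls past threshold 2, grey points are the other probes, and the Pax6 probe lies at the dim end with a log2 difference of 0.00.

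Among genes with a symbol here that were detected in both lines, the largest rise was that of Dkk3, a secreted glycoprotein of the Dickkopf family of Wnt regulators. Its signals were 943, 894 and 674 in the Pax6(5a) line, against 157, 158 and 156 in the control line, a 5.28-fold difference (SE 0.12, adjusted p = 3e-07). The passage 13 array was the lowest of the Pax6(5a) line and still more than all control arrays. Ccn2, a matricellular protein also called connective tissue growth factor, had 1252, 1345 and 892 in the Pax6(5a) line, against 301, 302 and 205 in the control line, and rose 4.32-fold (SE 0.16, adjusted p = 1.4e-05). Ngef (ephexin-1), an exchange factor that acts downstream of Eph receptors, had 3880, 4043 and 4810 in the Pax6(5a) line, against 1010, 994 and 1396 in the control line, and rose 3.78-fold (SE 0.17, adjusted p = 4.7e-05). Ngef was highest at the later passage of each line, and the lines did not overlap.

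A pair of histone genes followed. H1f2, a linker histone, had 1769, 1560 and 2227 in the Pax6(5a) line, against 611, 526 and 558 in the control line (3.25-fold, SE 0.12, adjusted p = 5.6e-06), and H2bc4, a core histone of the H2B type, had 618, 686 and 832 in the Pax6(5a) line, against 264, 266 and 243 in the control line (2.75-fold, SE 0.14, adjusted p = 8.6e-05). H2bc13, another H2B gene, also rose, 1.53-fold, but missed threshold 2 when any 1 of 5 arrays was left out: Pax6(5a) replicate 1 or 2 or 3 or control replicate 1 or 3 (adjusted p = 0.015 to 0.054). Of 53 histone genes measured these 3 rose, 0 fell and 50 did not pass, and the median log2 difference of the list was 0.02, against 0.00 over all genes. Those counts use the brightest probe, and other probes of H3c11 (1.61-fold, adjusted p = 0.00066) and H3c2 (1.7-fold, adjusted p = 0.0053) were lower past threshold 2, where the brightest was not (adjusted p = 0.026 for H3c11 and 0.79 for H3c2). The number of histone genes that fell was 3 without control replicate 3, 4 at passage 13 in both lines, and 5, with 5 rises, with passage number in the model. Histone genes are close copies of each other, and how far each probe separates them was not tested.

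Nerve-associated genes held some of the largest changes in both directions. Ncam1, the neural cell adhesion molecule, was detected on all 3 Pax6(5a) arrays and no control array, with signals of 138, 146 and 121 in the Pax6(5a) line, against 56.0, 56.6 and 52.4 in the control line. The difference was at least 1.74-fold (adjusted p = 4.2e-06), a bound with control signals set at each array's detection limit, its lowest detected signal. Bdnf, a neurotrophin, had 144, 144 and 152 in the Pax6(5a) line, against 65.8, 70.6 and 81.9 in the control line, and was detected on 3 of 3 Pax6(5a) arrays and 1 of 3 control arrays (2.02-fold, SE 0.09, adjusted p = 3.1e-05). By quantitative PCR, however, the paper saw no apparent regulation of Bdnf. Jakmip1, a microtubule-binding protein of neurons, was detected on all 3 Pax6(5a) arrays, no control array and 1 array of the Pax6 line. It had 114, 112 and 152 in the Pax6(5a) line, against 64.7, 62.8 and 65.1 in the control line, and rose at least 1.61-fold (adjusted p = 0.00043). Snrpn, an imprinted gene for a splicing protein, rose 1.75-fold (SE 0.07, adjusted p = 5.9e-05).

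Olfm1 (noelin), a secreted glycoprotein of neural tissue, went the other way. Its signals were 67.5, 69.1 and 59.5 in the Pax6(5a) line, against 285, 259 and 288 in the control line, and it was detected on 0 of 3 Pax6(5a) arrays and on 3 of 3 of the control line, a fall of at least 3.58-fold (adjusted p = 4e-08). Nsg1, an endosomal protein of neurons, had 85.8, 102 and 117 in the Pax6(5a) line, against 213, 179.8 and 215 in the control line, and fell 2.01-fold (SE 0.11, adjusted p = 0.00024). In all, 5 of 62 measured neuronal and synaptic genes rose (Ngef, Ncam1, Bdnf, Jakmip1, Snrpn), 2 fell and 55 did not pass, with a median of -0.03, against 0.00 over all genes. Of 11 neuron markers measured, 7 were detected on none of the 6 arrays, among them Map2, Dcx, Nefl and Stmn2, and 0 passed threshold 2. The summed signal of these markers was 1140 to 1192 in the Pax6(5a) line, against 1038 to 1131 in the control line.

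Among genes detected in both lines, the largest fall was that of Cytip, which binds cytohesins, exchange factors for small GTPases at the membrane. It had 77.9, 89.6 and 83.5 in the Pax6(5a) line, against 788, 784 and 580.3 in the control line, an 8.5-fold difference (SE 0.11, adjusted p = 1.7e-08). Crtap, a part of the endoplasmic reticulum complex that 3-hydroxylates collagen prolines, was detected on all control arrays and on none of the Pax6(5a) line. Its signals were 63.6, 64.8 and 56.4 in the Pax6(5a) line, against 423, 481 and 489 in the control line, and the fall was at least 5.99-fold (adjusted p = 1.7e-08). Crtap was detected in the Pax6 line, at 103 and 135 (adjusted p = 0.0014 for the difference from the Pax6(5a) line).

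**Figure D2:**
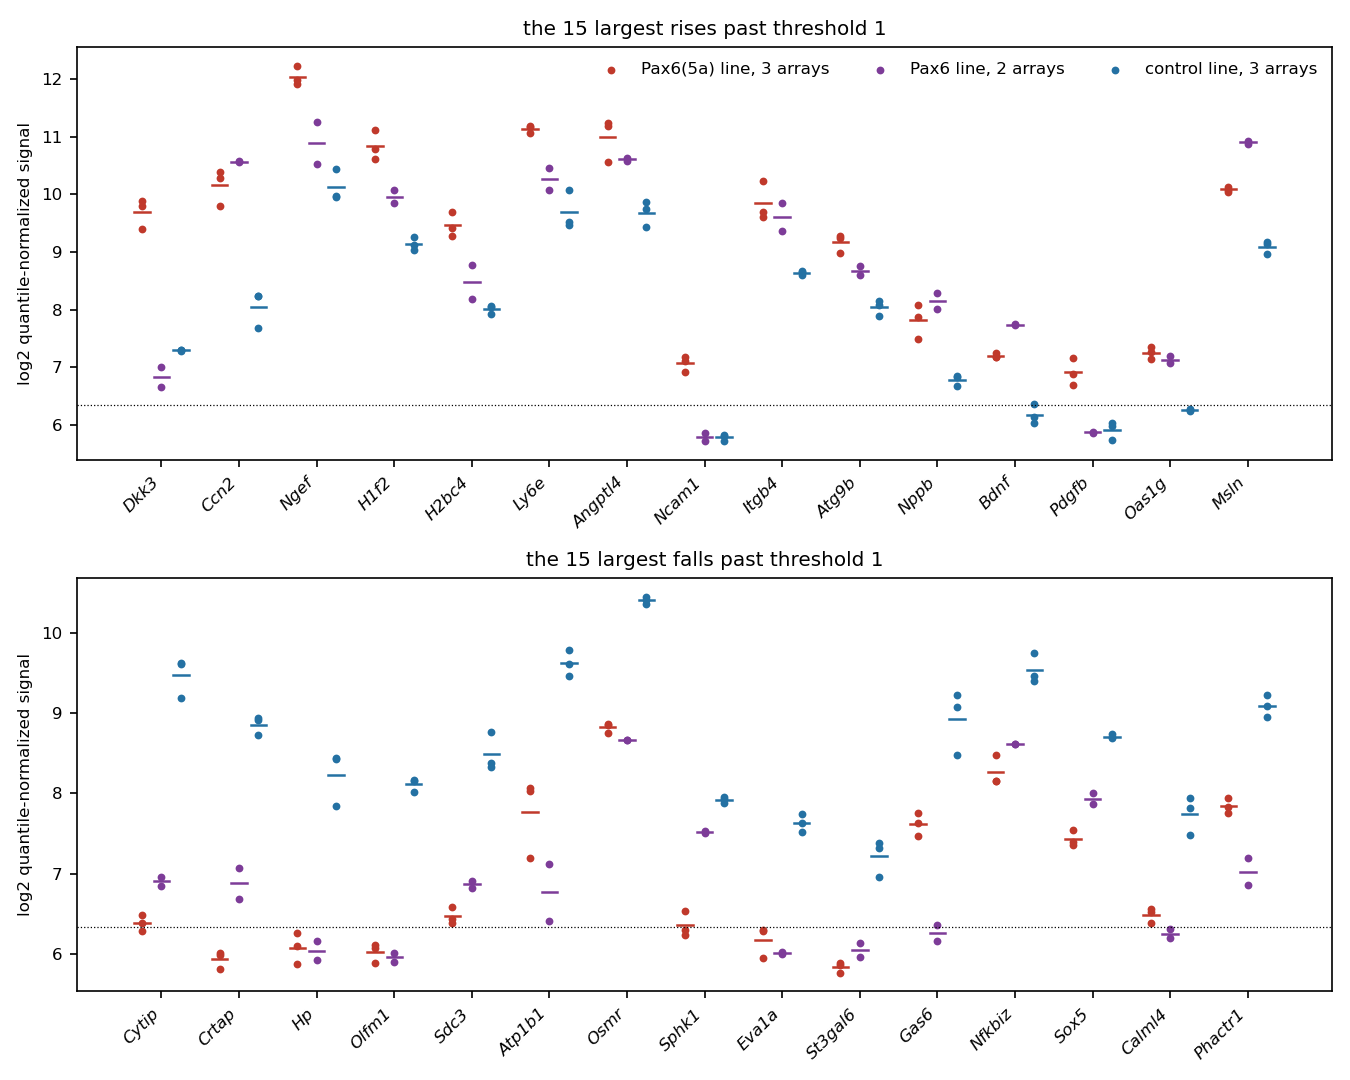
Log2 quantile-normalized signal (y axis) on each array for the 15 largest rises and 15 largest falls past threshold 1, with the Pax6(5a) line (3 arrays, red), the Pax6 line (2 arrays, purple) and the control line (3 arrays, blue) side by side for each gene. Short bars are means and the dotted line is the highest of the 8 arrays' lowest detected signals; in every gene shown the arrays of the Pax6(5a) line lie wholly above or wholly below those of the control line.

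Beside Crtap, 1 other gene of collagen modification fell. Pcolce, which speeds removal of the procollagen C-propeptide, fell 1.54-fold (SE 0.08, adjusted p = 0.00061), although not without control replicate 2 (adjusted p = 0.0055, with a fold under 1.5). Of 28 genes of collagen modification measured, these 2 fell, 0 rose and 26 did not pass, with a median of -0.12. None of the 34 collagen chains measured passed threshold 2, and their median was -0.05. Over all genes 0.551% rose and 0.651% fell, so a count of 0 in a list of this size says little about its members. Collagen chains are the substrate of the Crtap complex, and the median of all genes was 0.00.

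Of the small leucine-rich proteoglycans, which bind collagen fibrils, 3 fell. Prelp had 352, 337 and 798 in the Pax6(5a) line, against 2239, 2232 and 2216 in the control line, and fell 4.89-fold (SE 0.34, adjusted p = 0.0023). The passage 13 array of the Pax6(5a) line stood well above its passage 8 arrays, whereas the control arrays were nearly level. At passage 13 in both lines the fall was 2.80-fold, and the call was lost without Pax6(5a) replicate 1 or 2 or control replicate 1 or 2 (adjusted p = 0.015 to 0.019). Lum (lumican) had 79.6, 72.3 and 83.4 in the Pax6(5a) line, against 173, 167 and 132 in the control line, and fell 2.00-fold (SE 0.10, adjusted p = 0.00017). Dcn (decorin) had 4502, 4081 and 6407 in the Pax6(5a) line, against 8222, 8503 and 9307 in the control line, and fell 1.77-fold (SE 0.14, adjusted p = 0.0046). At passage 13 in both lines it was only 1.30-fold lower, and it did not pass threshold 2 without Pax6(5a) replicate 1 or 2 or control replicate 1 or 2 or 3 (adjusted p = 0.017 to 0.032). Of the 3 other probes for Dcn, 2 passed threshold 1 in the same direction, at 2.39-fold and 2.32-fold. Of 15 such proteoglycans measured, 3 fell, 0 rose and 12 did not pass, with a median of -0.05. Dcn and Lum are also among the 15 fibroblast markers, whose summed signal was 43340 to 45390 in the Pax6(5a) line, against 44430 to 49730 in the control line, and the part of this in the result was not tested.

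Among microfibril and elastic fibre genes, Ltbp2, a latent TGF-beta binding protein, fell 1.88-fold (SE 0.13, adjusted p = 0.0015), but not past threshold 2 without Pax6(5a) replicate 1 (adjusted p = 0.013), and Mfap5 rose 1.58-fold (SE 0.12, adjusted p = 0.0096), with the call lost without Pax6(5a) replicate 1 or 2 or 3 or control replicate 1 or 2 (adjusted p = 0.016 to 0.052). The other 18 of 20 did not pass. Spon2, a secreted matrix protein of the F-spondin family, had 5314, 5615 and 4485 in the Pax6(5a) line, against 11410, 10870 and 8244 in the control line, and fell 1.97-fold (SE 0.12, adjusted p = 0.00057). Sdc3 (syndecan 3), a heparan sulphate proteoglycan of the cell surface, had 84.1, 86.6 and 96.4 in the Pax6(5a) line, against 322, 332 and 435 in the control line, and fell 4.04-fold (SE 0.11, adjusted p = 6.2e-07). Its arrays did not overlap between the lines, and it was detected on all 6.

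Among the enzymes that build glycans, 7 fell. St3gal6, which adds sialic acid to galactose, was detected on all 3 control arrays and on none of the Pax6(5a) line, with signals of 58.3, 59.4 and 54.6 in the Pax6(5a) line, against 166, 159.9 and 124 in the control line, a fall of at least 1.93-fold (adjusted p = 1.5e-05). Gcnt1, which starts the core 2 branch of O-glycans, had 209.6, 262 and 234 in the Pax6(5a) line, against 607, 567 and 385 in the control line, and fell 2.18-fold (SE 0.14, adjusted p = 0.00075). Ugt1a7c, a glucuronosyltransferase whose gene shares exons with other Ugt1a genes that array probes may not separate, had 1958, 1943 and 1688 in the Pax6(5a) line, against 3708, 3713 and 3052 in the control line, and fell 1.87-fold (SE 0.09, adjusted p = 0.00017). Csgalnact1, which starts chondroitin sulphate chains, fell 1.82-fold (SE 0.09, adjusted p = 0.0001), and St3gal1, a sialyltransferase of O-glycans, fell 1.69-fold (SE 0.10, adjusted p = 0.00069). Fut8, which adds the core fucose of N-glycans, had 131, 134 and 130.2 in the Pax6(5a) line, against 184, 220.4 and 209 in the control line, and fell 1.55-fold (SE 0.09, adjusted p = 0.0022). Gcnt2, the branching enzyme of the blood group I antigen, fell 1.51-fold (SE 0.09, adjusted p = 0.0027). The call of Fut8 was lost without Pax6(5a) replicate 1 or 2 or control replicate 2 (adjusted p = 0.012 to 0.017), and that of Gcnt2 without Pax6(5a) replicate 1 or 2 or control replicate 1 or 3 (adjusted p = 0.0091 to 0.021, the lowest with a fold under 1.5). Of the 3 other probes for Gcnt2, 1 was detected on all 6 arrays and was 1.01-fold higher (adjusted p = 0.97). At passage 13 in both lines Fut8 was 1.55-fold lower and Gcnt2 1.35-fold lower.

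In all, 7 of 99 glycosyltransferases measured fell, 0 rose and 92 did not pass, with a median of -0.03 (all genes 0.00). The study named glycosyltransferases from these arrays, so this count is not independent of that choice. St6gal1 and Mgat3 are named members that did not pass here. By RT-PCR and quantitative PCR the paper reported every enzyme it tested, St6gal1 and Mgat3 included, lower in both lines with an insert. The size of the falls varied between its experiments. St6gal1, which adds sialic acid to N-glycans, had 608, 569.8 and 515 in the Pax6(5a) line, against 714, 838 and 806 in the control line (1.39-fold lower, adjusted p = 0.017), and Mgat3, which adds the bisecting N-acetylglucosamine, had 426, 410 and 399.8 in the Pax6(5a) line, against 559, 581 and 445 in the control line (1.27-fold lower, adjusted p = 0.067). Set against the Pax6 line, both were higher in Pax6(5a) cells (adjusted p = 0.001 for St6gal1 and 0.00024 for Mgat3).

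Inflammatory genes were mostly lower where they were called. Hp (haptoglobin), an acute phase protein that binds free haemoglobin, was detected on 3 control arrays and on none of the Pax6(5a) line, at 77.0, 68.9 and 58.7 in the Pax6(5a) line, against 344, 346 and 229 in the control line, a fall of at least 3.89-fold (adjusted p = 5.3e-06). Nfkbiz, a nuclear member of the I-kappaB family, had 285, 285 and 355 in the Pax6(5a) line, against 706, 673 and 859.6 in the control line, and fell 2.42-fold (SE 0.11, adjusted p = 3.1e-05). Casp1, the protease that matures interleukin 1 beta, was also detected on all control arrays and on none of the Pax6(5a) line, but on 1 array of the Pax6 line. It had 73.5, 72.3 and 77.9 in the Pax6(5a) line, against 141, 127 and 129.7 in the control line, and fell at least 1.71-fold (adjusted p = 5.1e-05). Nod1, a sensor of bacterial peptidoglycan, fell 1.85-fold (SE 0.09, adjusted p = 0.00018), and Azi2, an adaptor of the kinase Tbk1, fell 1.82-fold (SE 0.07, adjusted p = 3.4e-05).

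Il33, an alarmin of the interleukin 1 family, had 1100, 1137 and 1857 in the Pax6(5a) line, against 2989, 3058 and 3217 in the control line, and fell 2.33-fold (SE 0.18, adjusted p = 0.0018). Its passage 13 array in the Pax6(5a) line stood above those of passage 8, and the fall at passage 13 in both lines was 1.63-fold. The call of Il33 was lost without Pax6(5a) replicate 1 or 2 or control replicate 1 or 2 (adjusted p = 0.011 to 0.014). Casp4, the sensor of intracellular endotoxin, fell 1.64-fold (SE 0.12, adjusted p = 0.0043). At passage 13 in both lines it was only 1.39-fold lower, and its call was lost without Pax6(5a) replicate 1 or 2 or control replicate 1 or 3 (adjusted p = 0.016 to 0.03). Only Ptgs2, the inducible cyclooxygenase, rose, 1.58-fold (SE 0.11, adjusted p = 0.0057), and that call was lost without Pax6(5a) replicate 1 or 2 or 3 or control replicate 2 or 3 (adjusted p = 0.011 to 0.031). Of 66 genes of inflammation, NF-kappaB and the acute phase measured, 8 fell, 1 rose and 57 did not pass, with a median of -0.06.

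A few cytokine receptors fell. Osmr, the receptor subunit for oncostatin M, had 467, 462 and 431 in the Pax6(5a) line, against 1358, 1390 and 1312 in the control line, and fell 2.99-fold (SE 0.07, adjusted p = 1.3e-07). The 3 arrays of each line lay close together, and far from those of the other line. Il1rap, the co-receptor of interleukin 1 and interleukin 33, had 144, 139 and 132 in the Pax6(5a) line, against 314, 300.4 and 265 in the control line, and fell 2.11-fold (SE 0.09, adjusted p = 1.8e-05). The brightest of its 6 probes is given, and of the other probes none passed threshold 2. Il13ra1, a receptor chain for interleukins 4 and 13, fell 2.12-fold (SE 0.09, adjusted p = 3.2e-05). The other 39 of 42 cytokine receptor genes did not pass, and the median of the list was -0.01. Bdkrb1, the bradykinin receptor that inflammation induces, had 87.0, 92.2 and 97.1 in the Pax6(5a) line, against 189.8, 175 and 221 in the control line, and fell 2.11-fold (SE 0.09, adjusted p = 3.1e-05).

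Of the interferon-stimulated genes, 4 rose. Ly6e, a membrane-anchored surface protein, had 2294, 2133 and 2340 in the Pax6(5a) line, against 730.5, 709.6 and 1078 in the control line, and rose 2.74-fold (SE 0.14, adjusted p = 0.00012). Control passage 19 was the highest of the control arrays. Oas1g, a 2'-5' oligoadenylate synthetase, had 141, 154 and 163 in the Pax6(5a) line, against 75.6, 77.5 and 76.1 in the control line, and rose 1.99-fold (SE 0.08, adjusted p = 1.8e-05). Of the 4 other probes for Oas1g, 2 passed threshold 1 in the same direction and 2 were detected on none of the 6 arrays. The Oas1 genes are near-identical copies, so the member measured is uncertain. Bst2 (tetherin), which holds back budding virus, rose 1.80-fold (SE 0.10, adjusted p = 0.00053), and Irgm1, an interferon-induced GTPase, rose 1.59-fold (SE 0.11, adjusted p = 0.0046). At passage 13 in both lines Bst2 was 1.49-fold higher and Irgm1 1.28-fold, both short of the fold limit of threshold 2. Irgm1 also failed without Pax6(5a) replicate 1 or 2 or control replicate 2 or 3 (adjusted p = 0.012 to 0.032). Of 55 such genes measured, 4 rose, 0 fell and 51 did not pass, with a median of 0.05.

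Genes that respond to serum, actin dynamics and the co-activator YAP held 10 of the rises. Beside Ccn2, its relative Ccn1 rose 2.33-fold (SE 0.21, adjusted p = 0.0068), as did Ankrd1, a nuclear ankyrin repeat protein, 2.07-fold (SE 0.14, adjusted p = 0.0012). Nppb, the precursor of brain natriuretic peptide, had 271, 235 and 179 in the Pax6(5a) line, against 115, 102 and 114 in the control line, and rose 2.05-fold (SE 0.13, adjusted p = 0.00074). Plau, the urokinase plasminogen activator, had 960.5, 1094 and 831 in the Pax6(5a) line, against 503, 538 and 514 in the control line, and rose 1.85-fold (SE 0.11, adjusted p = 0.00064). Crim1, a membrane protein that binds bone morphogenetic proteins, rose 1.69-fold (SE 0.10, adjusted p = 0.00064). F3 (tissue factor), which starts blood clotting, rose 1.78-fold (SE 0.16, adjusted p = 0.0099), but missed threshold 2 when any 1 of the 6 arrays was left out (adjusted p = 0.0017 to 0.054, the lowest with a fold under 1.5).

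In this list 10 of 56 genes measured rose (with Bdnf, Acta2 and Ptgs2), 0 fell and 46 did not pass, with a median log2 difference of 0.23, against 0.00 over all genes. The number that rose was 5 without Pax6(5a) replicate 1, 6 without control replicate 2, and 2 when preparations of the same passage were averaged. At passage 13 in both lines 8 rose and 4 fell. There Ccn1 was 1.47-fold higher and Ankrd1 1.53-fold. The call of Ccn1 was also lost without Pax6(5a) replicate 1 or 2 or control replicate 1 or 2 (adjusted p = 0.012 to 0.041), and that of Ankrd1 without Pax6(5a) replicate 1 (adjusted p = 0.011).

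Acta2, the actin of smooth muscle and myofibroblasts, had 9849, 10040 and 8744 in the Pax6(5a) line, against 5515, 5837 and 5203 in the control line, and rose 1.73-fold (SE 0.14, adjusted p = 0.0059). The Pax6 line had 3247 and 5173, and differed from the Pax6(5a) line (adjusted p = 0.0013). One of the 2 other Acta2 probes also passed threshold 2 in the same direction. The call was lost without Pax6(5a) replicate 1 or 2 or control replicate 1 or 2 or 3 (adjusted p = 0.02 to 0.035). The 8 smooth muscle markers measured, Acta2 among them, summed to 10120 to 11580 in the Pax6(5a) line, against 6539 to 7442 in the control line. Acta2 itself made up most of each sum, so the sums largely repeat its rise. The other 7 did not pass threshold 2, and their part in this result was not tested. Of these 8, 3 were detected on none of the 6 arrays, the contractile genes Myh11, Cnn1 and Des.

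Of the growth factors of vessels and their partners, 3 rose. Angptl4, a secreted inhibitor of lipoprotein lipase, had 2419, 2320 and 1513 in the Pax6(5a) line, against 931, 863 and 688 in the control line, and rose 2.49-fold (SE 0.16, adjusted p = 0.00048). Its passage 13 array was the lowest of the Pax6(5a) line, and at passage 13 in both lines the difference was 1.69-fold. The other probe for Angptl4, detected on all 6 arrays, was 1.39-fold higher and did not pass (adjusted p = 0.075). Pdgfb, a chain of platelet-derived growth factor, was detected on each Pax6(5a) array and no control array, at 119, 144 and 103 in the Pax6(5a) line, against 65.2, 63.3 and 53.1 in the control line, and rose at least 1.55-fold (adjusted p = 0.00037). Cd93, a surface lectin of endothelial and myeloid cells, rose 1.73-fold (SE 0.10, adjusted p = 0.00051). The other 25 of 28 genes of this list did not pass, with a median of 0.01. They include the receptors Pdgfra, with 878, 839.6 and 785 in the Pax6(5a) line, against 1283, 1344 and 1016 in the control line (1.45-fold lower, adjusted p = 0.011), and Pdgfrb (1.21-fold lower, adjusted p = 0.11). Pdgfra passed threshold 2 without control replicate 3 (adjusted p = 0.0014), and was 1.67-fold lower at passage 13 in both lines. The paper saw no apparent regulation of Pdgfra by quantitative PCR. Vegfa had 1061, 1065 and 1528 in the Pax6(5a) line, against 1715, 2064 and 1498 in the control line, and its lines overlapped (1.45-fold lower, adjusted p = 0.053), but it passed without Pax6(5a) replicate 3 (adjusted p = 0.005). With 1 array left out 0 or 1 genes of the list fell, and 2 at passage 13 in both lines.

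Cdh5 (VE-cadherin), the adhesion molecule of endothelial junctions, had 504, 497 and 618 in the Pax6(5a) line, against 311, 349.8 and 309 in the control line, and rose 1.66-fold (SE 0.09, adjusted p = 0.00076). It was higher still in the Pax6 line, at 867 and 868 (adjusted p = 0.0045 for the difference). The other 7 of 8 endothelial markers measured, among them Pecam1, Tek and Kdr, were detected on none of the 6 arrays. With Cdh5, the 8 summed to 904 to 1043 in the Pax6(5a) line, against 728 to 763 in the control line. Edn1 (endothelin 1) had 105, 112 and 79.7 in the Pax6(5a) line, against 72.9, 75.7 and 61.0 in the control line, and did not pass (adjusted p = 0.045), except without Pax6(5a) replicate 3 (adjusted p = 0.0055). Nor did the receptor Ephb4 (1.22-fold lower, adjusted p = 0.09).

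Of the genes for signalling by sphingosine and lysophosphatidic acid, a kinase, a phosphatase and a receptor fell. Sphk1, which makes sphingosine 1-phosphate, had 75.8, 93.3 and 79.2 in the Pax6(5a) line, against 243, 248 and 236 in the control line, and fell 2.94-fold (SE 0.09, adjusted p = 6.5e-07). It was detected on 2 of 3 Pax6(5a) arrays and on all control arrays. Plpp3, a phosphatase that breaks down these lipids outside the cell, had 1727, 1569 and 1870 in the Pax6(5a) line, against 3610, 3716 and 4195 in the control line, and fell 2.23-fold (SE 0.11, adjusted p = 5.6e-05), and its second probe passed threshold 1 in the same direction at 1.86-fold. Lpar4, which binds lysophosphatidic acid at the cell surface, fell 1.7-fold (SE 0.13, adjusted p = 0.0058), with the call lost without Pax6(5a) replicate 1 or 2 or 3 or control replicate 1 or 2 (adjusted p = 0.016 to 0.038). Sgms2, a sphingomyelin synthase, rose 1.51-fold (SE 0.11, adjusted p = 0.0076), with the call lost without Pax6(5a) replicate 1 or 2 or 3 or control replicate 1 or 2 (adjusted p = 0.012 to 0.049). In all 3 of 43 genes fell, 1 rose and 39 did not pass, with a median of 0.06.

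Adhesion and junction genes were called in both directions. Itgb4, the integrin chain of hemidesmosomes, had 779.7, 830.1 and 1197 in the Pax6(5a) line, against 409, 387 and 405 in the control line, and rose 2.30-fold (SE 0.15, adjusted p = 0.00064). Its other probe, a dim one detected on 2 Pax6(5a) arrays and 1 control array, was 1.005-fold higher (adjusted p = 0.99). Msln (mesothelin), a surface protein of mesothelium, had 1122, 1058 and 1084 in the Pax6(5a) line, against 566, 579 and 498 in the control line, and rose 1.99-fold (SE 0.08, adjusted p = 1.8e-05). The Msln arrays of each line lay within a narrow range. Pkp2, a desmosomal plakophilin, rose 1.69-fold (SE 0.10, adjusted p = 0.00082), but was only 1.40-fold higher at passage 13 in both lines. Baiap2l1, which bends membranes and bundles actin, fell 1.81-fold (SE 0.10, adjusted p = 0.00042). In the epithelial and junction list 3 of 53 rose, 1 fell and 49 did not pass (median 0.03), and the 11 epithelial markers were detected on none of the 6 arrays.

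Tns1 (tensin 1), which ties integrins to actin, had 121, 131 and 126 in the Pax6(5a) line, against 265, 255 and 238 in the control line, and fell 2.01-fold (SE 0.07, adjusted p = 1.1e-05). Itga11, a collagen-binding integrin chain, was detected on 2 of 3 control arrays and on none of the Pax6(5a) line and fell at least 1.18-fold (adjusted p = 0.0096), but not without Pax6(5a) replicate 1 or 2 or 3 or control replicate 1 (adjusted p = 0.026 to 0.053). Lims2, an adaptor of integrin-linked kinase, rose 1.71-fold (SE 0.14, adjusted p = 0.0076), but not without Pax6(5a) replicate 1 or 2 or 3 or control replicate 1 or 2 (adjusted p = 0.022 to 0.045). Of 45 genes of integrins, tensins and focal adhesions, 2 rose, 3 fell and 40 did not pass, with a median of 0.02.

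Transcription factors of development fell singly. Sox5, a factor of cartilage and neural development, had 168, 187 and 165 in the Pax6(5a) line, against 414, 426 and 415 in the control line, and fell 2.42-fold (SE 0.08, adjusted p = 2.3e-06). Nr2f1 (COUP-TF1), an orphan nuclear receptor, had 978, 878 and 1203 in the Pax6(5a) line, against 1799, 1848 and 2106 in the control line, and fell 1.89-fold (SE 0.11, adjusted p = 0.00046). Gata6, a factor of endoderm and heart, had 81.4, 74.0 and 71.7 in the Pax6(5a) line, against 130.4, 129 and 131 in the control line, and fell 1.72-fold (SE 0.08, adjusted p = 0.00016). Of 89 measured these 3 fell, 0 rose and 86 did not pass (median -0.04), while 5 fell without Pax6(5a) replicate 3. None of 51 genes of eye development and the Pax family passed, 13 of them being detected on at least 1 of the 6 arrays, and their median was 0.00. With 0.551% of all genes higher and 0.651% lower, this count too says little about the list.

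Of 58 Wnt ligands and regulators, Dkk3 passed and 57 did not, but 2 rose without control replicate 3 and 4 at passage 13 in both lines. In the retinoic acid pathway, Crabp1, a carrier of retinoic acid in the cytosol, had 333, 286 and 365 in the Pax6(5a) line, against 769, 734 and 588 in the control line, and fell 2.12-fold (SE 0.12, adjusted p = 0.00037). Aldh1a1, which makes retinoic acid from retinal, was detected on no control array but on all arrays of the Pax6(5a) line and the Pax6 line. It rose at least 1.75-fold (adjusted p = 0.0064). Its signals were 156, 184 and 88.0 in the Pax6(5a) line, against 62.6, 65.4 and 52.3 in the control line, so that passage 13 of the Pax6(5a) line lay nearest to the control line. At passage 13 in both lines it was 1.38-fold higher, and the call was lost without Pax6(5a) replicate 1 or 2 or control replicate 1 or 2 or 3 (adjusted p = 0.023 to 0.042). The other 19 of 21 genes did not pass.

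Autophagy genes were called in both directions. Atg9b, a membrane protein of the forming autophagosome, had 606, 621 and 504 in the Pax6(5a) line, against 284, 271 and 238 in the control line, and rose 2.18-fold (SE 0.10, adjusted p = 4e-05). Eva1a, a membrane protein that promotes autophagy, had 78.6, 78.1 and 61.8 in the Pax6(5a) line, against 215, 198 and 183 in the control line, and fell 2.74-fold (SE 0.10, adjusted p = 5.3e-06). The other 40 of 42 genes did not pass. Of 77 cell cycle and DNA replication genes, 76 did not pass, and the list median was 0.05. The 1 that passed was Dut, the dUTPase that keeps uracil out of DNA, with 149, 151 and 149.8 in the Pax6(5a) line, against 256, 279 and 278 in the control line, a fall of 1.81-fold (SE 0.07, adjusted p = 3.1e-05).

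Of 37 genes of cholesterol and fatty acid synthesis, Dhcr7 and Mvd, both of the cholesterol pathway, fell, Dhcr7 1.65-fold (SE 0.13, adjusted p = 0.0072) and Mvd 1.61-fold (SE 0.12, adjusted p = 0.0055), and the list median was -0.15. These calls were lost for Dhcr7 without Pax6(5a) replicate 1 or 2 or 3 or control replicate 1 or 2 (adjusted p = 0.024 to 0.044) and for Mvd without Pax6(5a) replicate 1 or 3 or control replicate 1 or 2 (adjusted p = 0.015 to 0.037). With passage number in the model 10 genes of the list fell. Among 58 genes of glutathione and xenobiotic metabolism, Gstt3, a glutathione transferase, had 136, 150.2 and 122 in the Pax6(5a) line, against 299.5, 264 and 235 in the control line, and fell 1.95-fold (SE 0.10, adjusted p = 0.00019), as did Ugt1a7c. Aldh1a1 rose, and 55 genes did not pass.

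**Figure D3:**
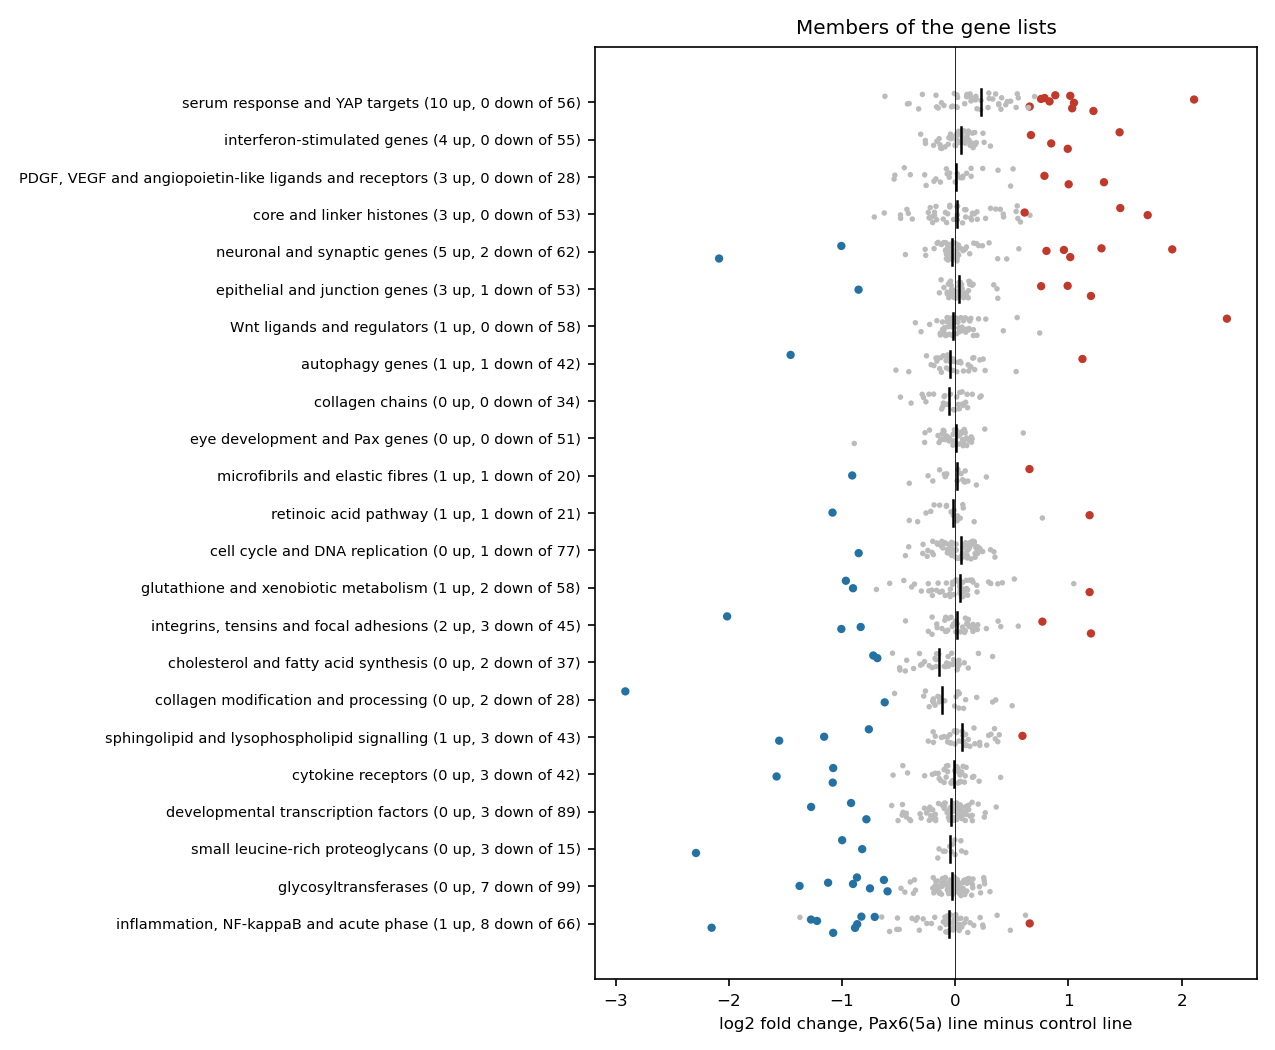
Log2 fold change of the Pax6(5a) line over the control line (x axis) for each measured member of the gene lists (rows, ordered by rises minus falls), 1 point per gene by its brightest probe. Red and blue points rose and fell past threshold 2, grey points did not pass, and black bars are list medians. The lists of marker, reference and paper genes are not shown. Of the medians shown, that of serum response and YAP targets lies furthest from 0, at 0.23.

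Some genes were detected in only 1 of the Pax6(5a) line and the control line, whether or not they were detected in the Pax6 line. Of all genes, 43 were detected on 3 of 3 arrays of the Pax6(5a) line and 0 of 3 of the control line, and 31 the other way round. Of these, 10 and 11 passed threshold 2. Beside those given above, the 10 hold S100a7a, a calcium-binding protein of skin, with 164, 164 and 146 in the Pax6(5a) line, against 65.0, 73.4 and 54.8 in the control line (at least 2.03-fold, adjusted p = 0.0014), which was higher again in the Pax6 line, at 241 and 456, and missed threshold 2 without Pax6(5a) replicate 1 (adjusted p = 0.011). They also hold Celsr3, a cadherin of axon tracts, with 122, 103 and 144 in the Pax6(5a) line, against 61.6, 66.8 and 75.5 in the control line (at least 1.57-fold, adjusted p = 0.003), and Tspoap1, a synaptic scaffold, with 116, 115 and 158 in the Pax6(5a) line, against 77.4, 65.1 and 67.0 in the control line (at least 1.65-fold, adjusted p = 0.0033). The call was lost for Celsr3 without Pax6(5a) replicate 1 or control replicate 1 or 2 (adjusted p = 0.019 to 0.023) and for Tspoap1 without Pax6(5a) replicate 1 or control replicate 2 or 3 (adjusted p = 0.011 to 0.024). Snx20, Fcho1 and Slco4a1, the other 3, lay at least 1.53, 1.17 and 1.14-fold higher (adjusted p = 0.0059, 0.0004 and 0.00019), and Snx20 lost its call without Pax6(5a) replicate 1 or 2 or 3 or control replicate 1 or 2 (adjusted p = 0.016 to 0.035).

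Among the 11 genes detected in the control line and not in the Pax6(5a) line, Ptgir, the receptor for prostacyclin, had 51.6, 51.8 and 50.3 in the Pax6(5a) line, against 89.2, 96.9 and 117 in the control line, a fall of at least 1.30-fold (adjusted p = 0.00011). Nbl1, a secreted antagonist of bone morphogenetic proteins, had 66.3, 60.6 and 56.6 in the Pax6(5a) line, against 109, 127 and 98.3 in the control line (at least 1.43-fold, adjusted p = 0.00039). Slpi, a secreted inhibitor of neutrophil elastase, had 59.5, 51.0 and 69.4 in the Pax6(5a) line, against 110.3, 122 and 102 in the control line (at least 1.44-fold, adjusted p = 0.0015), with the call lost without Pax6(5a) replicate 1 or control replicate 1 or 2 (adjusted p = 0.01 to 0.013). Plekhb1, Slc10a6 and Ush1c were lower by at least 1.14, 1.40 and 1.34-fold (adjusted p = 0.001, 0.0011 and 0.0029). Each lost its call without 1 or more arrays, namely for Plekhb1 without control replicate 2 (adjusted p = 0.0061, with a fold under 1.5), for Slc10a6 without control replicate 2 (adjusted p = 0.0083, with a fold under 1.5) and for Ush1c without Pax6(5a) replicate 2 or 3 or control replicate 1 or 2 (adjusted p = 0.01 to 0.022). The lowest detected signal was 76.2 to 78.9 units on the 6 arrays, so the true folds of these genes are not known.

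Other large falls lay outside the lists. Atp1b1, a beta subunit of the sodium pump, had 262, 268 and 147 in the Pax6(5a) line, against 883, 783 and 706 in the control line, and fell 3.62-fold (SE 0.21, adjusted p = 0.00039). Its passage 13 array was the lowest of the Pax6(5a) line, and the fall at passage 13 in both lines was 5.66-fold. Gas6, a ligand of the Tyro3, Axl and Mertk receptors, had 199, 178 and 217 in the Pax6(5a) line, against 541, 599 and 358 in the control line, and fell 2.47-fold (SE 0.16, adjusted p = 0.00046). Phactr1, which binds actin and protein phosphatase 1, had 217, 228 and 246 in the Pax6(5a) line, against 496, 546 and 596 in the control line, and fell 2.37-fold (SE 0.10, adjusted p = 2.1e-05). Calml4, a calmodulin-like protein, had 94.4, 92.0 and 83.8 in the Pax6(5a) line, against 245, 226 and 178 in the control line, and fell 2.38-fold (SE 0.11, adjusted p = 3.4e-05). Tceal5, Ica1 and Ranbp3l fell 2.14, 1.91 and 2.09-fold, while Sh3tc2 and Lyzl4 rose 1.79 and 1.74-fold. At passage 13 in both lines Sh3tc2 was just short of the 1.5-fold limit.

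From the paper 53 genes were listed, which are not all that it names, and 48 of them had a probe by symbol here. Of the 48, 37 passed threshold 2, 18 higher and 19 lower. They were chosen on these arrays, so the count is no independent support. Of the 11 that did not pass, some are given above. By its arrays the paper assigned Klk8, Tgfbi and Vegfa to the Pax6 form alone, and Edn1 to the Pax6 form, with PCR showing a change for Pax6(5a) too. These were thus not array calls for Pax6(5a) in the paper. Klk8, a serine protease, had 416, 424 and 386 in the Pax6(5a) line, against 247, 269 and 290 in the control line (1.52-fold higher, adjusted p = 0.063), and passed in a fit of the 6 arrays alone (adjusted p = 0.0015). Tgfbi, a matrix protein induced by TGF-beta, had 201, 224 and 247 in the Pax6(5a) line, against 337, 354 and 362 in the control line (1.57-fold lower, adjusted p = 0.03), and also passed in that fit (adjusted p = 0.0014). Ppp3ca, the catalytic subunit of calcineurin, had 1613, 1458 and 1423 in the Pax6(5a) line, against 2651, 2829 and 1853 in the control line (1.61-fold lower, adjusted p = 0.012). It passed without control replicate 3 (adjusted p = 0.00025), and was 1.92-fold lower at passage 13 in both lines. For Ppp3ca too the paper saw no apparent regulation by quantitative PCR. Prkd3, a protein kinase D, was 1.38-fold lower (adjusted p = 0.0096), under the fold limit.

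The background correction neqc and averaging of same-passage preparations ended the calls of many named genes. With neqc 40 of the 99 named calls missed threshold 2 (adjusted p = 0.0101 to 0.0955), and all 40 also missed it with averaging. Those that rose were Angptl4, Itgb4, Nppb, Plau, Ccn1, Ankrd1, Acta2, F3, Ptgs2, Aldh1a1, Tspoap1, Celsr3, Snx20, Bst2, Irgm1, Lims2, Mfap5, H2bc13 and Sgms2. Those that fell were Atp1b1, Prelp, Gas6, Il33, Gcnt1, Gcnt2, Fut8, St3gal1, Spon2, Crabp1, Nr2f1, Dcn, Ltbp2, Casp4, Lpar4, Dhcr7, Mvd, Itga11, Slpi, Ush1c and Ranbp3l. Averaging alone ended the calls of another 19, namely Ly6e, Pdgfb, Jakmip1, S100a7a, Sh3tc2, Lyzl4, Cd93, Pkp2, Crim1, Cdh5 and Fcho1 among the rises and Ugt1a7c, Lum, Tceal5, Baiap2l1, Nbl1, Pcolce, Slc10a6 and Plekhb1 among the falls (adjusted p up to 0.13 over the 59).

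A gene that passed in the Pax6(5a) line was also tested against the Pax6 line, in the same fit. The arrays of the Pax6(5a) line enter both comparisons. Of the 68 genes past threshold 1, 52 also passed threshold 2 in the Pax6 line against the control line, 41 of them threshold 1, and 16 did not pass. The control arrays are shared by these comparisons, and the share of all genes that passed in the Pax6 line is not given here. The overlap is thus not read as a result about the 68 genes. Among the 52 are Ccn2 (5.73-fold higher in the Pax6 line), Cytip (5.91-fold lower) and Osmr (3.34-fold lower). Between the Pax6(5a) line and the Pax6 line, 26 of the 68 differed at an adjusted p under 0.05, against 2.01% of all genes. The number was 16 without Pax6(5a) replicate 1 and 14 without Pax6 replicate 1. Dkk3 had the largest difference among genes detected in both of these lines, with 943, 894 and 674 in the Pax6(5a) line, against 128 and 101 in the Pax6 line (7.28-fold, adjusted p = 4.1e-07). Ncam1 had 138, 146 and 121 in the Pax6(5a) line, against 53.0 and 58 in the Pax6 line, where it was detected on no array, a difference of at least 1.68-fold (adjusted p = 2.3e-05). Pdgfb was likewise not detected, at 58.2 and 58.8 in the Pax6 line (at least 1.503-fold, adjusted p = 0.0012), and Ngef at 1472 and 2454 (adjusted p = 0.0089).

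Among the falls, Sphk1 had 75.8, 93.3 and 79.2 in the Pax6(5a) line, against 182 and 186 in the Pax6 line (adjusted p = 4.7e-05). Lum had 79.6, 72.3 and 83.4, against 193 and 179.5 (adjusted p = 0.00013), and Tns1 had 121, 131 and 126, against 213 and 218 (adjusted p = 0.00039). In these genes the Pax6(5a) line stood apart from both other lines. The reverse was seen for Il33, with 1100, 1137 and 1857 in the Pax6(5a) line, against 171 and 248 in the Pax6 line (adjusted p = 2.2e-05), and for Lpar4, with 418, 389 and 400, against 106 and 154 (adjusted p = 8.4e-05). For Olfm1 and Hp, which were detected in neither line with an insert, the adjusted p of the difference was 0.88 and 0.97, which does not show that their levels were alike.

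**Figure D4:**
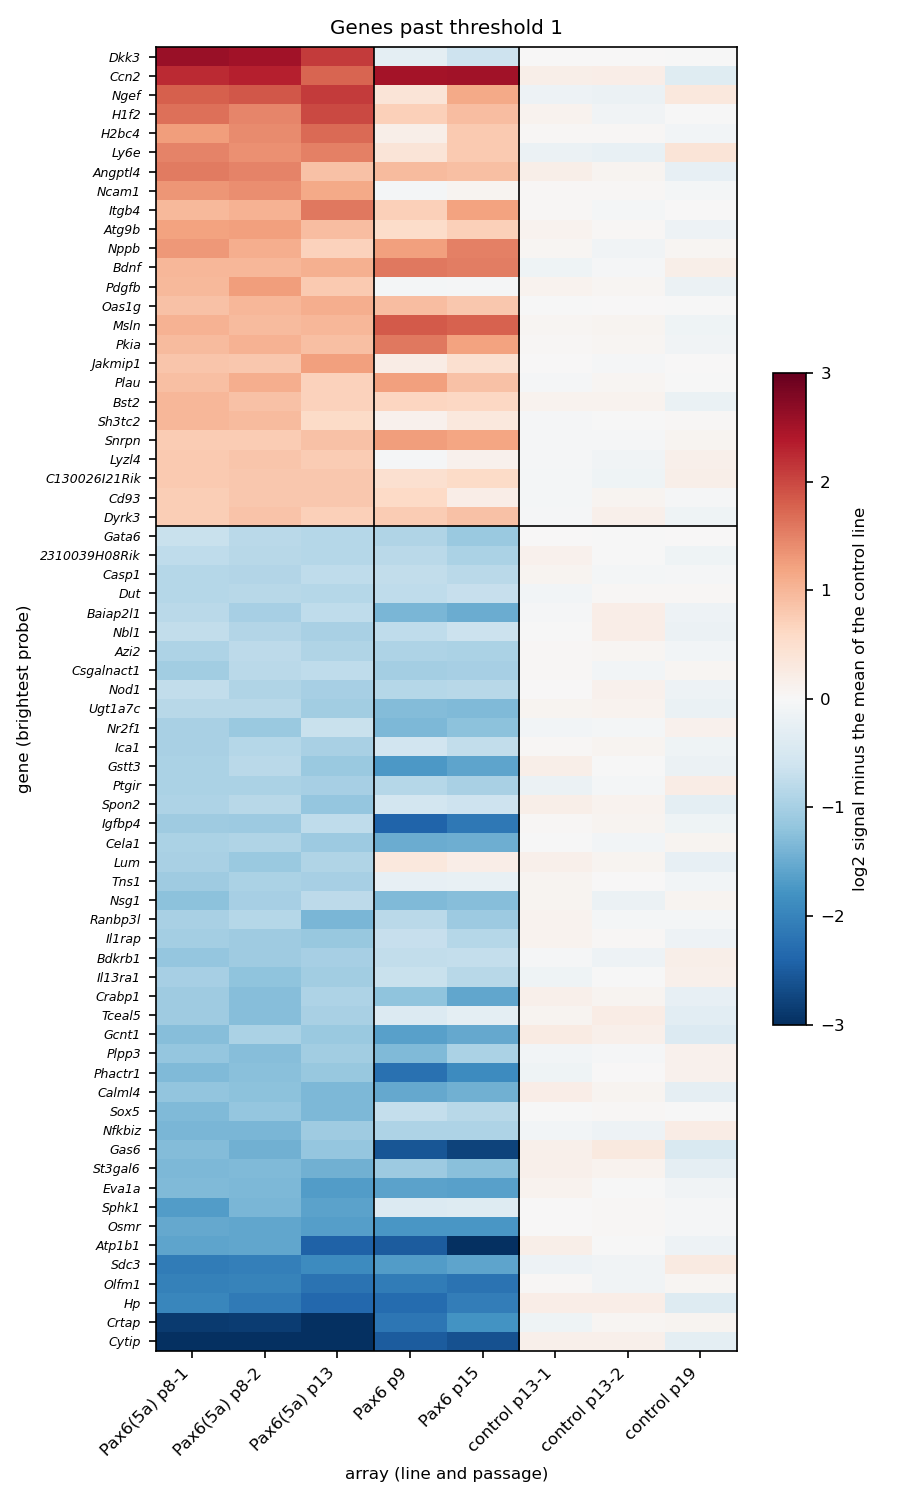
Log2 signal minus the mean of the control line (colour, from -3 to 3) for the 68 genes past threshold 1 (rows, 25 higher above the line and 43 lower below it) on the 8 arrays (columns, by line and passage). The 3 arrays of the Pax6(5a) line share their colour row by row, and Dkk3, Ncam1, Pdgfb, Sphk1, Lum and Tns1 are rows where the 2 arrays of the Pax6 line lie nearer to those of the control line.

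Passage differed between the lines, so the 192 genes past threshold 2 were also followed within lines. All 192 had the same sign of change in the passage 13 array of the Pax6(5a) line against the passage 13 arrays of the control line. This was fixed in advance, since none of the 192 overlapped between the lines and these arrays are part of the comparison itself. Of the 192, 151 differed by at least 1.5-fold there. Between passages 13 and 8 of the Pax6(5a) line 8 of the 192 differed by at least 1.5-fold, the largest being Prelp at 2.32-fold, and between passages 19 and 13 of the control line 12 did. In a fit with a mean for each line and passage, the Pax6(5a) line has 1 array at passage 13. The 2 residual degrees of freedom of that fit come only from the pairs of same-passage preparations. Its p-values thus do not measure the spread between passages.

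Promoters of the genes past threshold 1 were searched for the 5aCON half-site, the site that the Pax6(5a) paired domain selects in vitro, on both strands with up to 2 mismatches. Windows of 300 bases, from 250 before to 50 after a start site (RefSeq, GRCm38.p6), were at hand for 47 of the 68 genes past threshold 1 and for 12847 of the 15967 genes of the array. Of these, 10 of 47 (21.3%) and 2571 of 12847 (20%) held a match, 4 of 12 genes that rose (33.3%) and 6 of 35 that fell (17.1%). The 47 genes had 75 windows, and the 12847 genes had 15959. None of these 47 genes had a match with fewer than 2 mismatches. Of the 12847 genes, 17 had an exact match and 225 a match with 1 mismatch, so their absence among 47 genes says little. P6CON, the site selected by the Pax6 paired domain, matched in 0 of 47 and in 8 of 12847 genes (0.0623%). A match is a run of letters and not a shown site, and longer stretches were not searched. The 10 matches are shown to let them be set beside the half-site, each read along the strand on which it matches, with the letters that fit the half-site in capitals.
Atg9b (rose): ATGCaCAGaGA
Bdnf (rose): ATGTgCAGTGg
Jakmip1 (rose): gTGCTCAGgGA
Snrpn (rose): cTGCTCAGaGA
Nr2f1 (fell): tTGCcCAGTGA
Olfm1 (fell): tTGCTCgGTGA
Osmr (fell): gTGCTCAGcGA
Phactr1 (fell): AgGCTCAGgGA
St3gal6 (fell): ATGCTCgGTGg
Ugt1a7c (fell): ATGTTCcTTaA

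Of the 10 genes with a match, Olfm1 and Osmr had the largest changes, so their windows are given whole, along the strand of the gene with the match in capitals. The window of Olfm1 lies at chr2:28192843-28193142 on the plus strand and that of Osmr at chr15:6874264-6874563 on the minus strand (GRCm38.p6). Within the window the match starts 72 bases before the start site in Olfm1, where it reads on the opposite strand, and 94 bases before it in Osmr.
Olfm1: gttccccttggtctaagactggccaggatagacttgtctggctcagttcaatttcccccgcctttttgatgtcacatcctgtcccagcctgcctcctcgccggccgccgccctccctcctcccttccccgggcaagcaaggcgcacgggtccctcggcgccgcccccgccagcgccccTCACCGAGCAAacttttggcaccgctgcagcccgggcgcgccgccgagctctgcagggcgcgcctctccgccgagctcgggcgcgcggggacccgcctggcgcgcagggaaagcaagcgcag
Osmr: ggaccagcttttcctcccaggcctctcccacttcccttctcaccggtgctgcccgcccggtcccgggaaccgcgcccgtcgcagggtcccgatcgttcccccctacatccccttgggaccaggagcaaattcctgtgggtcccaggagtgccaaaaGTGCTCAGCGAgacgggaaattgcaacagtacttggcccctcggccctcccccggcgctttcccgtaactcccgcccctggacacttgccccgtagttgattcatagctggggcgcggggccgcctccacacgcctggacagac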

How the data were processed

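RNA of the 3 lines was amplified from 300 ng with the Illumina TotalPrep kit and hybridised to Illumina Mouse Ref-8 V1.1 arrays. The authors deposited signal intensity values in 2 forms, not normalized and quantile normalized, and the deposited detection p-values. The scanner software, its background correction and the genome build of the probes are not given in the sources used here. The authors tested the lines with limma, version not given. Quantile normalization of the deposited non-normalized intensities gave their normalized values to within 5e-06. Quantile normalization makes all arrays share 1 distribution, so differences are relative. No background was subtracted here, which understates folds of dim genes.

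Here the log2 values were fitted with limma 3.58.1 in R 4.3.3, with a mean for each line over all 8 arrays (5 residual degrees of freedom), and p-values adjusted by Benjamini-Hochberg over 24613 probes. The thresholds follow the methods of the study. Symbols came from the Entrez identifiers of the platform table and the GRCm38.p6 gene table, which held 20968 of the 20984 probes with 1 gene. Where a line had no detection, its signals were raised to the lowest detected signal of each array for a bound. Named genes are Pax6, the 15 largest rises and falls past threshold 1, genes the paper names, list members past threshold 2, and called genes detected in only 1 of the Pax6(5a) line and the control line. The members and lists were chosen with earlier results of these data known. The fit was tested on simulated data. Alternatives were neqc (offset 16), normexp (offset 50), median scaling, cyclic loess, 2 filters on detection, a trended robust prior, a fit of 6 arrays, passage as covariate or matched, preparations averaged, a random culture block, a replicate block, and each array left out. Figures used matplotlib 3.10.9 and pandas 2.3.3 in Python 3.11.15. PCR, immunoprecipitation and growth data were not analysed here.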

Additional observations from a re-analysis of the deposited data

Results flagged for a closer look

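The change in the Pax6(5a) line against the control line differed from that in the Pax6 line against the control line in 36 of the 99 called genes named above, at an adjusted p under 0.05 in the limma fit. Over all 192 called genes the number was 56, and over all genes the share was 2.01%. Values for the 36 are log2 differences of the Pax6(5a) line minus the Pax6 line, and the arrays of the Pax6(5a) line that chose these genes are part of them.

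Genes that rose in the Pax6(5a) line and lay above the Pax6 line were Dkk3 (2.86), Ncam1 (1.28), Acta2 (1.22), Ngef (1.15), Pdgfb (1.04), H2bc4 (0.98), H1f2 (0.88), Celsr3 (0.87) and Ly6e (0.87). Smaller differences of this kind were those of Tspoap1 (0.82), Lyzl4 (0.74), Sh3tc2 (0.61), Jakmip1 (0.61), Slco4a1 (0.60), Atg9b (0.49) and Fcho1 (0.38). Genes whose fall was smaller in the Pax6(5a) line were Il33 (2.68), Lpar4 (1.66), Gas6 (1.36), Phactr1 (0.82), Gstt3 (0.69), Ltbp2 (0.68) and Baiap2l1 (0.57).

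Genes that rose less in the Pax6(5a) line were S100a7a (-1.07), Lims2 (-0.88), Msln (-0.81), Cdh5 (-0.69), Crim1 (-0.60), Bdnf (-0.55) and Snrpn (-0.42). Lum (-1.25) fell in the Pax6(5a) line and did not pass in the Pax6 line. Genes that fell further in the Pax6(5a) line were Sphk1 (-1.16), Crtap (-0.94), Tns1 (-0.78), Tceal5 (-0.75) and Sox5 (-0.50). Some of these values involve a line with no detection, and only a bound holds there. Against the Pax6 line, detected on 0 of 2 arrays, the bound was 1.68-fold for Ncam1, 1.503-fold for Pdgfb, 1.52-fold for Celsr3, 1.13-fold for Fcho1 and 1.1-fold for Slco4a1. Crtap, detected on 0 of 3 arrays of the Pax6(5a) line, was at least 1.52-fold lower there. Groups of 3 arrays are too small for an outlier test.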

How the results depend on the processing

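The count past threshold 1 (82) was 26 with neqc, 206 with passage number as a covariate, 197 at passage 13 against passage 13, 11 with preparations of the same passage averaged and 143 with the replicate block. It ranged from 45 to 105 with 1 array left out, the lowest without control replicate 1 and the highest without control replicate 3. The count past threshold 2 (238) was 149 with neqc, 501 with passage number, 553 at matched passage and 57 with preparations averaged, and 159 to 284 with 1 array left out. The number of threshold 1 genes that differed from the Pax6 line (26) was 14 with preparations averaged and 14 to 30 with 1 array left out. The counts past both thresholds also rose by more than 1.5 times at passage 13 against passage 13, where the Pax6(5a) line has 1 array. Other settings kept each count within 1.5 times, and of the 82 probes 23 remained with neqc and 11 with averaging. Of the 99 called genes named, 0 changed direction in any of 21 settings. In settings that only leave out, match or average arrays this was fixed in advance, as no called gene overlapped between the lines. Of the 99, 39 passed threshold 2 in all settings, 40 failed with neqc, 59 with averaging, and 31 when at least 1 of the 6 arrays was left out. Replicate numbers 1 and 2 occur in both lines, but no source says that they mark a shared batch, and the differences of replicate 1 minus 2 correlated at 0.02 between the lines over all probes and at 0.08 over probes detected on all arrays, while deviations from the line means correlated at 0.10 for replicate 1 and 0.12 for replicate 2. With the replicate block, 99 of the 99 named genes kept their call in a blocked fit of the 6 arrays with 2 residual degrees of freedom. Of the 12 named genes that did not pass, 6 passed in at least 1 setting. Leaving out a Pax6 array was added after the data were seen. The number of arrays and the closeness of dim signals to background limit the precision.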

Other observations

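Of the 82 probes past threshold 1, 8 have no symbol in the platform table used here, which does not mean that they match no gene. One of them, detected on all arrays of the Pax6(5a) line and no control array, had 524, 518 and 478 units, against 63.9, 62.1 and 67.3 in the control line, at least 6.52-fold higher (limma adjusted p = 1.4e-05). It had 96.8 and 242 units in the Pax6 line. Another, detected on all control arrays and on none of the Pax6(5a) line, had 61.5, 62.9 and 62.3 units in the Pax6(5a) line, against 345, 318 and 288 in the control line (at least 4.09-fold lower, adjusted p = 1.3e-07). It had 73.4 and 100.5 units in the Pax6 line.

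A further 11 genes, singled out after their values were seen, differed by at least 2-fold between the line means without passing threshold 2. Of these, 10 had no overlap between the lines, as had 3501 of all 15967 genes. A choice by fold makes such a lack of overlap likely, so it is no support for a difference. Fbxw5, a substrate receptor of ubiquitin ligases, had 58.1, 58.7 and 62.7 in the Pax6(5a) line, against 948, 859 and 63.3 in the control line (adjusted p = 0.17), and 767 and 59.1 in the Pax6 line at passages 9 and 15. It was thus far above background in the earlier passage of both the Pax6 line and the control line and at background on the other arrays. Mgp, an inhibitor of calcification, had 231, 241 and 95.2 in the Pax6(5a) line, against 1110, 1132 and 304 in the control line (adjusted p = 0.026), lower at the later passage of each line. Serpina3n, an acute phase serpin, had 56.2, 55.5 and 50.7 in the Pax6(5a) line, against 89.5, 83.6 and 366 in the control line (adjusted p = 0.084), highest at control passage 19. Aqp1, a water channel, had 424, 399.8 and 818 in the Pax6(5a) line, against 1013, 1063 and 1422 in the control line (adjusted p = 0.034), while its other probe passed threshold 2 in the same direction (1.695-fold lower, adjusted p = 0.0023). Aox3, an aldehyde oxidase, had 301, 310.3 and 189 in the Pax6(5a) line, against 828, 869 and 362 in the control line (adjusted p = 0.019). Ccl9, a chemokine, had 2532, 2058 and 1865 in the Pax6(5a) line, against 1281, 1068 and 533 in the control line (adjusted p = 0.011), just short of threshold 2. The part that passage has in these values was not tested.

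Called genes not named above numbered 93, 46 higher by 1.5 to 2.28-fold and 47 lower by 1.5 to 2.53-fold. Chosen after their values were seen, Ppargc1a, a co-activator of mitochondrial genes, fell 2.08-fold (SE 0.17, adjusted p = 0.0033), and Igfbp4, a binding protein of insulin-like growth factors, fell 1.97-fold (SE 0.10, adjusted p = 0.00019). Havcr2 (Tim-3), a surface receptor of T cells, rose 2.28-fold (SE 0.20, adjusted p = 0.0047), with 634, 684 and 813 in the Pax6(5a) line, against 292, 306 and 335 in the control line.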
